A study of Mus musculus with 16 samples.

Results

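The genes described here were 10 genes of the p53 pathway and of cell death, chosen by name. They were the transcription factor gene *Trp53*, its antagonist *Mdm2*, the p53 targets *Cdkn1a*, *Phlda3*, *Trp53inp1* and *Ccng1*, the BCL2 family genes *Bax*, *Bbc3* and *Bcl2*, and the death receptor regulator *Cflar*. Of these, 7 had a probe set annotated to them alone, which gave 9 probe sets, among 18834 probe sets of 17215 gene symbols that were tested. All 9 passed the minimum signal, a log2 value above 5 in at least 1 pool. RNA from mandibular molar germs was hybridised to Affymetrix Mouse Gene arrays, with 8 pools from *Rsk2-/Y* embryos and 8 pools from wild-type (WT) embryos at E14.5, all on a C57Bl6 background. *Rsk2-/Y* embryos are males whose only copy of the X-linked gene *Rps6ka3*, which encodes the kinase RSK2, lacks exon 2, and the WT embryos were male littermates. A pool held 4 tooth germs according to the labels and came from 2 embryos according to the methods of the study. The sample names fall into 2 series, AZN and ABH, with 4 *Rsk2-/Y* and 4 WT pools in each. Neither the labels nor the methods say what these names mean. Genotypes were compared to ask how the loss of RSK2 changed gene expression in the molar germ.

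The protein p53 is a transcription factor that halts the cell cycle or triggers apoptosis in damaged or stressed cells. MDM2 marks p53 for degradation, and its own gene is a p53 target, so that both form a negative feedback loop. BCL2 holds the mitochondrial pathway of apoptosis in check, while BAX and PUMA, the product of *Bbc3*, promote it. The product of *Cflar*, called c-FLIP, blocks the activation of caspase-8 at death receptors. In the cap-stage tooth germ, the enamel knot is a signalling centre whose cells leave the cell cycle, express *Cdkn1a* and are later removed by apoptosis.

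Signals were the log2 values per probe set that the authors deposited. Array medians lay between 6.74 and 6.94, and between 26865 and 27885 of 35556 probe sets per array exceeded a signal of 5. *Rps6ka3* stood at 9.74, 10.06 and 10.40 in the *Rsk2-/Y* pools (lowest, median and highest of 8), against 9.61, 10.04 and 10.22 in the WT pools. A signal taken over the length of a transcript says little about the loss of exon 2, so it does not check the genotypes. The markers of both tooth tissues were present, with means over 16 pools of 12.13 for *Krt5* and 11.49 for *Krt14* in the dental epithelium and of 10.45 for *Msx1* and 10.86 for *Pax9* in the dental mesenchyme. In whole tooth germs, fewer cells of a type and less RNA per cell cannot be told apart.

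For *Cdkn1a*, the only probe set is annotated to several genes, and none is listed for *Trp53* and *Bax*, so these 3 genes were not analysed here. *Cflar* had 3 probe sets, and the one with the highest mean, 10497931, stands for the gene unless stated otherwise. Its identity is uncertain. Probe sets of this array are numbered mostly in the order of the genome, and of the 20 probe sets next in number to 10497931 with a symbol of their own, 0 belong to genes of chromosome 1, where *Cflar* lies, and 19 to genes of chromosome 3. For the *Cflar* probe sets 10346551 and 10346562, 18 of 19 neighbours belong to genes of chromosome 1. For the other 6 genes, between 14 and 20 of 20 neighbours lay on the gene's own chromosome. Values of 10497931 can therefore not be told apart from those of a copy of *Cflar* sequence elsewhere, and the other *Cflar* probe sets are given beside it.

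The promoter window of each gene, from 250 bases before to 50 bases after the annotated start, was searched for the p53 decamer, the consensus of 10 bases that p53 binds as a spaced pair. Sequences are those of RefSeq on GRCm38.p6, and the consensus reads as itself on both strands. Of the 10 genes, 9 had a window, and 5 of their 12 windows held a decamer, 1 window in each of 5 genes, against 8.36% of all 32851 windows. With 1 mismatch allowed outside the core C and G, 7 of the 12 windows held one, close to the 50.9% of all windows. *Mdm2* and *Ccng1* are shown because they held 1 decamer each, and *Bcl2* because it differed most between the series and held none. Capitals mark the decamer.

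Mdm2, chr10:117710709-117711008, minus strand: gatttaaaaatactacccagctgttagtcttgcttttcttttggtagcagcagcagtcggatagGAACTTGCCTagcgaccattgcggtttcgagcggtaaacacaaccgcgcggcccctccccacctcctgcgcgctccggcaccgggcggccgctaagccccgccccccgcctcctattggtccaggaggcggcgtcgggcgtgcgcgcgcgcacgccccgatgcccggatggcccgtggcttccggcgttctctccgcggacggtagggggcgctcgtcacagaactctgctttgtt

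Ccng1, chr11:40755237-40755536, minus strand: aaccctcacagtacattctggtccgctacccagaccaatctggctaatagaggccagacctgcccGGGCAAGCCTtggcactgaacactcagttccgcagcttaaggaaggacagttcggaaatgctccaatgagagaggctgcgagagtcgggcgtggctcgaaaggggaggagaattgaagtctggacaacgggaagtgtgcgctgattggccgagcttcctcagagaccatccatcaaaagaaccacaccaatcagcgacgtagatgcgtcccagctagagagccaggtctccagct

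Bcl2, chr1:106714241-106714540, minus strand: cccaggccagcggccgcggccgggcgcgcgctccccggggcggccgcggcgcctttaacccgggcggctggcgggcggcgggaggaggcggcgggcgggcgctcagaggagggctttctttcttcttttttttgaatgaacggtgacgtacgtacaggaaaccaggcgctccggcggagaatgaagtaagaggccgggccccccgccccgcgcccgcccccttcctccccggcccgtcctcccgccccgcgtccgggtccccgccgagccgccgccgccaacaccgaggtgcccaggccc

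Counted from the annotated start, the decamer began at position -186 in *Mdm2* and at position -185 in *Ccng1*. *Trp53* held GGACTTGCCC on chromosome 11 and *Bax* held AGGCAAGCTT on chromosome 7. The *Cdkn1a* window at chr17:29090729-29091028 held a pair of decamers no more than 13 bases apart, as did 0.0731% of all windows. The *Cdkn1a* window at chr17:29093519-29093818 held no decamer. The pair is shown because p53 binds decamers as a spaced pair. In the stretch shown, the letters tgacatgttc directly follow the second decamer and match the consensus with 1 mismatch, so they are not in capitals. Which of these p53 binds was not tested.

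Cdkn1a, chr17:29090901-29090952, plus strand: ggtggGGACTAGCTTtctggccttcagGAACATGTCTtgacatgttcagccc

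The windows of *Bcl2*, *Cflar*, *Phlda3* and *Bbc3* held no decamer. In the mouse, the promoter of *Mdm2* that responds to p53 lies in the first intron, outside such a window around the upstream start. The matches describe the letters of these windows only.

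None of the genes passed the test between the genotypes. The thresholds of the study's methods decided whether a probe set was called different, namely a fold change beyond 1.2 and a false discovery rate under 0.1. The study's own analysis at these thresholds lists *Mdm2* and *Cflar* as higher in *Rsk2-/Y*, and also *Naip2* and *Dffa*, genes of the lists below. None of them was called here. The fold changes that the study lists for *Mdm2* and *Cflar* lie above the 95% intervals found here. The study also reports that qRT-PCR did not reproduce its array results for a selection of genes, and its primer list holds *Mdm2* and *Cflar*. It names the varied phenotype and the small changes as possible reasons. The reason for the disagreement with the values found here was not tested. For *Rsk2-/Y* minus WT, 0 of the 9 probe sets were called by limma, and 0% of the 18834 tested were called (0 probe sets, with 762 at an unadjusted p under 0.05). Differences of the 9 probe sets lay between -0.13 and 0.071 on the log2 scale, and the adjusted p-value from limma was 0.9997 for each of them. In this fit without the series, the 95% intervals together reached from -0.43 (*Bcl2*) to 0.27 (*Mdm2*). Those of *Mdm2*, *Phlda3*, *Trp53inp1* and *Bcl2* held differences beyond a fold of 1.2. With the series as a block, they were -0.057 to 0.20, -0.26 to -0.0012, -0.30 to 0.038 and -0.24 to -0.014 in the same order. Among these genes, only the blocked interval of *Trp53inp1* still held such differences. The blocked intervals of *Phlda3* and *Bcl2* left out 0, with limma adjusted p-values of 0.71 and 0.66. The median difference over all probe sets tested was -0.015. Pools are the units of every test, so the p-values measure the spread between pools.

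*Mdm2* (probe set 10372668), which limits p53, stood at 8.75, 9.05 and 9.34 in the *Rsk2-/Y* pools, against 8.68, 9.03 and 9.27 in the WT pools (lowest, median and highest of 8). The ranges overlapped almost fully. The difference was 0.071 on the log2 scale (standard error 0.096), with 0.12 in the ABH series and 0.023 in the AZN series, and the exact permutation test over 12870 arrangements gave p = 0.493 (two-sided, n = 8 each).

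Among the targets that arrest growth or modulate survival, *Phlda3* (10350146), a p53-induced inhibitor of AKT, showed the lowest exact permutation p of the 7 genes for genotype over all arrangements, and *Bcl2* the lowest over those that keep the series. *Phlda3* stood at 9.27, 9.61 and 9.89 in the *Rsk2-/Y* pools, against 9.61, 9.71 and 9.93 in the WT pools. The 3 lowest pools were the *Rsk2-/Y* pools ABH_14A, ABH_15A and ABH_16A, and the other *Rsk2-/Y* pools lay within or at the edge of the WT range. Its difference was -0.13 (standard error 0.082, exact permutation p = 0.152 over all arrangements and p = 0.0592 over the 4900 that keep the series, n = 8 each). The difference was -0.20 in ABH, where limma called 0.0212% of all probe sets and none of these genes, and -0.059 in AZN, where it called 0%.

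*Trp53inp1* (10503259), whose product promotes p53-dependent cell death and autophagy, stood at 8.69, 9.20 and 9.44 in the *Rsk2-/Y* pools, against 8.82, 9.26 and 9.89 in the WT pools. The highest value belonged to 1 WT pool, ABH_25A, and the other 15 pools of both genotypes lay between 8.69 and 9.44. The difference was -0.13 (standard error 0.13). *Ccng1* (10385271), which encodes cyclin G1, a feedback regulator of p53, had the smallest standard error of the 7 genes for genotype. It stood at 10.67, 10.71 and 10.996 in the *Rsk2-/Y* pools, against 10.65, 10.72 and 10.81 in the WT pools, and the genotypes differed by 0.033 (standard error 0.049). The highest value came from the pool AZN_MolairesMutant3 alone.

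Of the BCL2 family, *Bcl2* (10357043) stood at 10.84, 11.28 and 11.69 in the *Rsk2-/Y* pools, against 11.05, 11.45 and 11.72 in the WT pools. Each genotype covered nearly the whole range, since the AZN pools were low and the ABH pools high in both. The difference was -0.13 (standard error 0.14), with -0.096 in ABH and -0.16 in AZN. The exact permutation test gave p = 0.416 over all arrangements and p = 0.0310 over those that keep the series (n = 8 each, two-sided). With the series as a block, limma gave an adjusted p of 0.657 for *Bcl2* over all probe sets, and 0.00531% of the probe sets tested were called. *Bbc3* (10550290), which encodes the pro-apoptotic protein PUMA, had signals not far above the minimum. It stood at 5.9997, 6.16 and 6.40 in the *Rsk2-/Y* pools, against 6.11, 6.20 and 6.33 in the WT pools, a difference of -0.043 (standard error 0.057).

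The main *Cflar* probe set stood at 7.32, 7.56 and 7.73 in the *Rsk2-/Y* pools, against 7.25, 7.50 and 7.73 in the WT pools. Both genotypes covered the same range, and the difference was 0.043 (standard error 0.076). The probe sets 10346551 and 10346562 differed by -0.061 (standard error 0.062) and -0.067 (standard error 0.090), so the 3 probe sets did not share a sign. No probe set of the 7 genes had genotypes that did not overlap, as 0.0159% of all probe sets did with *Rsk2-/Y* lower and 0% with *Rsk2-/Y* higher.

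**Figure D1:**
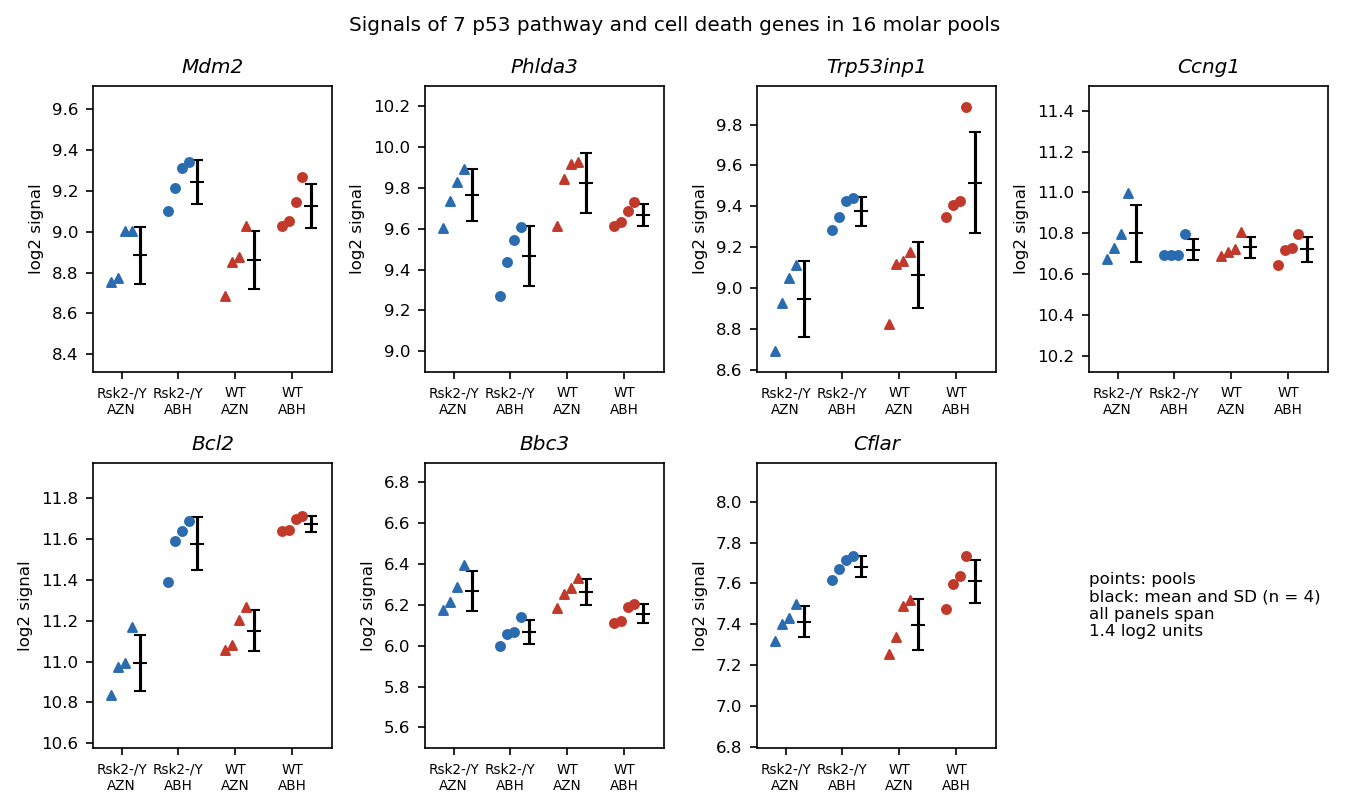
Log2 signal (y axis) of the main probe set of 7 genes in each pool, with *Rsk2-/Y* pools in blue and WT pools in red, AZN pools as triangles and ABH pools as circles, sorted by value within a group, and black bars for the mean and SD (n = 4). *Bcl2* and *Trp53inp1* are lower in all 8 AZN pools than in any ABH pool in both genotypes, whereas the genotypes overlap for all 7 genes.

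Far more probe sets differed between the series of the sample names. For AZN minus ABH, fitted with genotype as a covariate, 3 of the 7 genes were called, against 16.5% of all probe sets tested (3111 of 18834). All 3 were lower in AZN, as were 10.6% of the probe sets, and 5.95% were higher. These genes were *Bcl2*, *Trp53inp1* and *Mdm2*. A further 3 genes, *Cflar*, *Phlda3* and *Bbc3*, passed the false discovery rate but not the fold change of 1.2, and *Ccng1* passed neither.

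*Bcl2* had the largest difference between the series. It stood at 11.17, 10.99, 10.84 and 10.97 in the *Rsk2-/Y* pools of AZN, and at 11.08, 11.05, 11.20 and 11.27 in the WT pools of AZN. In ABH it stood at 11.39, 11.64, 11.69 and 11.59 in the *Rsk2-/Y* pools and at 11.70, 11.72, 11.64 and 11.64 in the WT pools. The lowest ABH pool, the *Rsk2-/Y* pool ABH_14A at 11.39, still lay above the highest AZN pool, so the series did not overlap, as was so for 5.42% of all probe sets with AZN lower and 3.54% with AZN higher. The means were 11.07 ± 0.14 in AZN and 11.63 ± 0.10 in ABH (SD, n = 8 each), a fold of 1.47 with a log2 difference of -0.55 (standard error 0.054) and a limma adjusted p of 1.8e-06. The exact permutation p was 0.000155, the smallest that 12870 arrangements allow.

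*Trp53inp1* did not overlap between the series either. It stood at 9.11, 8.69, 9.05 and 8.93 in the *Rsk2-/Y* pools of AZN and at 9.12, 8.82, 9.13 and 9.18 in the WT pools of AZN. In ABH it stood at 9.29, 9.43, 9.44 and 9.35 in the *Rsk2-/Y* pools and at 9.41, 9.35, 9.42 and 9.89 in the WT pools. The low end was formed by 1 pool of each genotype, AZN_MolairesMutant1 and AZN_MolairesWT2. The difference was -0.44 (standard error 0.080, adjusted p = 0.00041 from limma), and with ABH_25A, the highest pool, left out it was still -0.38.

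*Mdm2* was lower in AZN as well, with an overlap of the series. It stood at 8.78, 8.75, 9.004 and 9.004 in the *Rsk2-/Y* pools of AZN and at 9.03, 8.88, 8.68 and 8.85 in the WT pools of AZN. In ABH it stood at 9.10, 9.31, 9.21 and 9.34 in the *Rsk2-/Y* pools and at 9.05, 9.03, 9.27 and 9.15 in the WT pools. The overlap came from 1 WT pool of AZN, AZN_MolairesWT1, which lay level with the lowest WT pool of ABH. The difference was -0.31 (standard error 0.061, adjusted p = 0.00076 from limma), -0.36 within *Rsk2-/Y* and -0.26 within WT.

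*Cflar* followed the same direction with a smaller difference. The main probe set was at 7.25, 7.42 and 7.52 in AZN, against 7.48, 7.65 and 7.73 in ABH (lowest, median and highest of 8), a difference of -0.24 with a standard error of 0.049 and a limma adjusted p of 0.0011. The other *Cflar* probe sets differed by -0.13 (10346551, adjusted p = 0.067) and -0.14 (10346562, adjusted p = 0.21, limma), and neither was called. The main probe set was called in *Rsk2-/Y* pools alone (-0.27), and when the WT pool ABH_12A was left out (-0.263).

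*Phlda3* and *Bbc3* were higher in AZN. *Phlda3* was at 9.60, 9.84 and 9.93 in AZN, against 9.27, 9.61 and 9.73 in ABH, a difference of 0.23 (standard error 0.061, limma adjusted p = 0.0075). *Bbc3* was at 6.17, 6.27 and 6.40 in AZN, against 5.9997, 6.12 and 6.20 in ABH, a difference of 0.15 (standard error 0.042, limma adjusted p = 0.0086). Both genes overlapped between the series, and neither difference reached a fold of 1.2. *Phlda3* was called in *Rsk2-/Y* pools alone (0.30), and when the WT pool AZN_MolairesWT2, the lowest WT pool of AZN, was left out (0.27). *Ccng1* differed by 0.044 (standard error 0.046, 95% interval -0.053 to 0.14, adjusted p = 0.48 from limma).

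**Figure D2:**
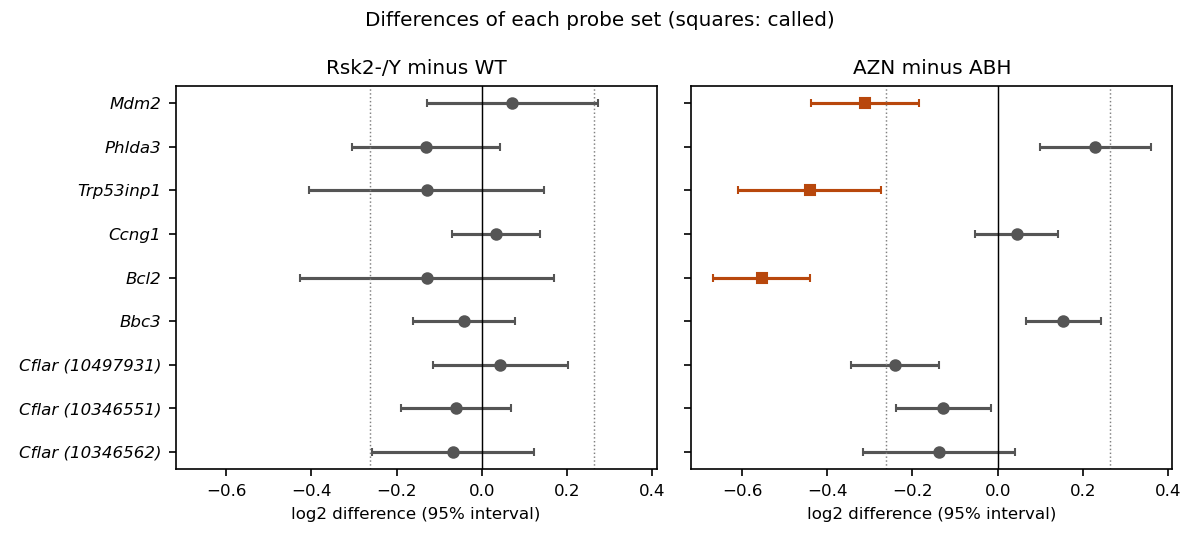
Log2 differences of the 9 probe sets with their 95% intervals for *Rsk2-/Y* minus WT (left) and AZN minus ABH (right), with orange squares for called probe sets and dotted lines at a fold change of 1.2. All intervals on the left, from the fit without the series, include 0, whereas *Mdm2*, *Trp53inp1* and *Bcl2* on the right have estimates below -0.26.

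The genotype difference was not found to depend on the series for any of the 7 genes. The interaction of genotype and series called 0 of the 9 probe sets, and 0% of all probe sets tested (1189 at an unadjusted p under 0.05, limma). Its estimates, the genotype difference in AZN minus that in ABH, ran from -0.10 for the *Cflar* probe set 10346551 to 0.14 for *Phlda3*. Standard errors of 0.083 to 0.17 leave room for differences of the size of the genotype effects themselves. For *Ccng1* and *Bbc3* the signs in the series differed, with 0.068 in AZN and -0.0025 in ABH for *Ccng1*, and 0.0046 in AZN and -0.090 in ABH for *Bbc3*.

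The 7 genes were next compared with each other from pool to pool within a series, so that the difference between the series could not produce a relation. All 21 pairs of the 7 genes were computed in each series over 8 pools with exact permutation tests over 40320 pairings. *Mdm2* and the main *Cflar* probe set gave the only pair with an adjusted p under 0.05 by Pearson's r, in ABH (r = 0.907, p = 0.000645, adjusted p = 0.0135, rho = 0.922, p = 0.00268, adjusted p = 0.0563). In AZN the pair gave r = 0.78 (exact permutation p = 0.0308, adjusted p = 0.388, rho = 0.81, p = 0.0218, adjusted p = 0.193). Without the 2 pools farthest from the median of *Mdm2*, r was 0.98 in ABH and 0.53 in AZN (exact permutation p = 0.283 in AZN, n = 6). With the genotype means removed, r was 0.78 in AZN and 0.88 in ABH.

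The relation was not shared by the *Cflar* probe sets whose neighbours lie on chromosome 1. Against *Mdm2*, 10346551 gave r = 0.19 in AZN and 0.24 in ABH, and 10346562 gave r = 0.26 in AZN and -0.13 in ABH (exact permutation p between 0.523 and 0.756, n = 8). By Pearson's r, the next strongest pair was *Phlda3* and *Bcl2*, with r = 0.71 in AZN (p = 0.0499, adjusted p = 0.388, rho = 0.74) and r = 0.79 in ABH (p = 0.0372, adjusted p = 0.391, rho = 0.67, exact permutation). It failed the adjustment in both series, and without the 2 farthest pools r was 0.64 in AZN and 0.12 in ABH, where these pools were ABH_14A and ABH_15A. Across all 18833 other probe sets and 16 pools, with the mean of each genotype and series removed, the genes most like *Mdm2* were *Ube2w* (r = 0.91), *Elof1* (r = 0.87), *Zfp931* (r = 0.86), *Ssx2ip* (r = 0.86) and *Cmas* (r = 0.85). These are the highest of 18833 values over few pools and were not tested, so they give a ranking only.

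**Figure D3:**
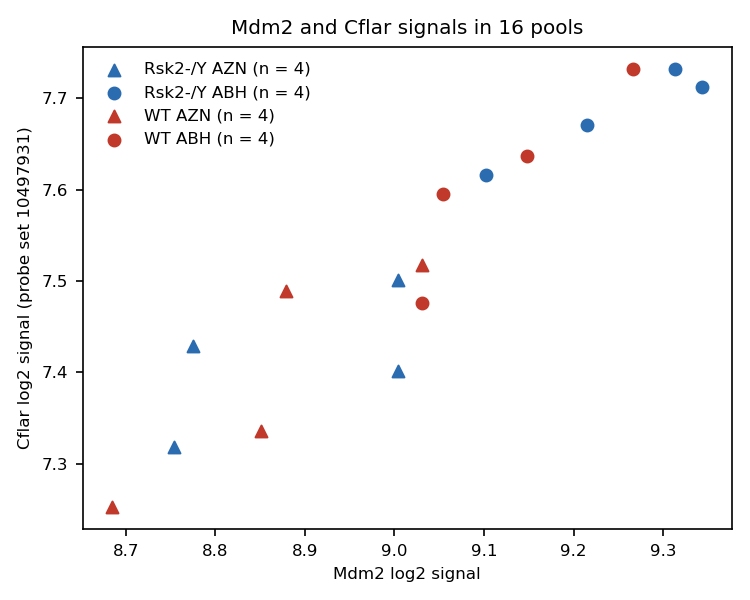
Log2 signal of *Mdm2* (x axis) against that of the main *Cflar* probe set (y axis) in 16 pools, with *Rsk2-/Y* in blue, WT in red, AZN as triangles and ABH as circles. Within ABH the 8 pools lie along a line (r = 0.907), and within AZN they scatter more widely (r = 0.78).

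The rest of the pathway was read from lists of genes, none of which contains the 10 genes above. For genotype, no gene of the 7 lists was called, and the medians lay between -0.039 and 0.0037, close to the median of all probe sets of -0.015. Of 21 p53 regulators, 6 were above 0, with the lowest values at *Ppp1r13l* (-0.24, standard error 0.067), which encodes the p53 inhibitor iASPP, and *Trp63* (-0.18, standard error 0.10), the p53 homologue that maintains stratified epithelia. Of 40 p53 targets, 9 were above 0, with the extremes at *Sfn* (-0.32, standard error 0.096), which encodes the epithelial protein 14-3-3 sigma, and *Ak1* (0.24, standard error 0.14), an adenylate kinase. The adjusted p-values from limma were 0.82 for *Ppp1r13l*, 0.91 for *Sfn* and 0.9997 for *Trp63* and *Ak1*. Without the WT pool AZN_MolairesWT2, *Ppp1r13l* was called (-0.29, adjusted p = 0.099 from limma).

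*Sfn* and *Trp63* are genes of epithelial cells, and the markers of dental epithelium are given beside them. All 19 dental epithelium markers measured, *Trp63* and the p53 target *Perp* among them, were below 0 for genotype with a median of -0.22, and none was called. Their mean signal per pool was 9.38 to 9.81 in *Rsk2-/Y* and 9.55 to 10.1 in WT. The skeletal muscle list had a median genotype difference of 0.53, with 21 of its 22 genes above 0 and none called, and its mean per pool was 7.24 to 9.56 in *Rsk2-/Y* and 7.30 to 8.69 in WT. Once the means of both the epithelium and the muscle list were covariates beside a series block, the genotype difference was 0.084 for *Trp63*, 0.023 for *Sfn*, -0.063 for *Ppp1r13l* and 0.0082 for *Phlda3*, and no gene passed. *Trp63* is itself 1 of the 19 genes of the epithelium mean.

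Among genes of the apoptosis machinery, the genotype differences were small. Of 16 other BCL2 family genes, 5 were above 0, with *Bik* at 0.070 and *Bid* at -0.065, both of which promote apoptosis. Of 19 caspases and inhibitors, 8 were above 0, with *Naip2*, a sensor that triggers caspase-1, and *Birc2*, which encodes cIAP1, both at 0.12. *Naip2* averaged only 5.20 over the pools, near the minimum signal. *Dffa*, which the study lists as higher in *Rsk2-/Y*, was at -0.0031 (standard error 0.037). Of 15 genes of the death receptor pathway, 4 were above 0, with *Ripk3*, a kinase of necroptosis, at -0.14 and *Tradd*, an adaptor of the TNF receptor, at -0.081. Of 19 proliferation genes, 5 were above 0, with *Foxm1* at -0.095 and *Aurkb* at -0.093. Of 15 genes of the list named dissection stress, 8 were above 0, with *Egr1* at 0.61 (standard error 0.19, adjusted p = 0.91 from limma) and *Egr2* at 0.46 (standard error 0.28). The lowest of this list was *Hspa1a* at -0.27 (standard error 0.064, adjusted p = 0.64 from limma). Whether dissection had a part in these differences was not tested.

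For AZN minus ABH, the p53 regulators were called in 1 direction only. Of 21 genes, 5 were lower and 0 higher, where 10.6% of all probe sets were lower and 5.95% higher, with a list median of -0.098 against 0.016 for all probe sets. *Chek1*, the checkpoint kinase CHK1, averaged 9.26 ± 0.16 in AZN and 9.89 ± 0.092 in ABH (SD, n = 8 each, log2 difference -0.63, adjusted p = 2.4e-06 from limma), and the series did not overlap. *Ppp1r13b*, which encodes the p53 cofactor ASPP1, fell by 0.45, *Ep300*, an acetyltransferase that acts on p53, by 0.36, and *Atm*, the kinase that signals DNA breaks, by 0.32. In WT pools alone *Atm* was at -0.21 and not called.

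Of 40 p53 targets, 3 were higher and 3 lower, a share close to the 16.5% called of all probe sets, with a list median of 0.0070. *Dgka*, a diacylglycerol kinase, averaged 9.61 ± 0.23 in AZN and 10.20 ± 0.12 in ABH (n = 8 each), a difference of -0.59, and *Gtse1*, a microtubule-associated protein that restrains p53, differed by -0.39. *Ak1* was higher by 0.36 and *Sesn1*, which encodes the stress protein sestrin 1, by 0.34. All 4 were called by limma, and *Ak1* was not when the epithelium and muscle means were added as covariates (0.17), in WT pools alone (0.19) or without 4 pools that stood apart (ABH_14A, AZN_MolairesMutant3, AZN_MolairesMutant and AZN_MolairesWT, a setting chosen after seeing the data, 0.23).

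Of the anti-apoptotic relatives of *Bcl2*, *Mcl1* was lower and *Bcl2l1* higher in AZN. *Mcl1* averaged 9.40 ± 0.15 in AZN and 9.85 ± 0.067 in ABH, a difference of -0.44, and the series did not overlap. *Bcl2l1*, which encodes BCL-XL, averaged 8.64 ± 0.066 in AZN and 8.35 ± 0.093 in ABH, a difference of 0.29. *Bok*, a pro-apoptotic member, was higher by 0.28 and missed the fold change limit at 0.26 without AZN_MolairesMutant3 or without ABH_14A, and at 0.24 without both. In WT pools alone *Bok* was at 0.19 (adjusted p = 0.18 from limma) and *Bcl2l1* at 0.24, and neither was called. The calls were 3 of 16 genes of the family, close to the 16.5% of all probe sets.

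Caspases and their inhibitors gave 1 higher and 2 lower of 19 genes, a share close to the 16.5% called of all probe sets. *Casp8*, the caspase that c-FLIP blocks, was lower by 0.32 (log2 difference -0.32, adjusted p = 0.0019 from limma), and *Birc6*, a large inhibitor of apoptosis, by 0.31 (log2 difference -0.31). *Endog*, a mitochondrial nuclease, was higher by 0.29. In WT pools alone neither *Birc6* (-0.22) nor *Endog* (0.17, adjusted p = 0.11 from limma) was called, and *Endog* was not called either without ABH_14A and AZN_MolairesMutant3 (0.26) or without the 4 pools named for *Ak1* (0.23). Of 15 death receptor genes, *Casp8* was the 1 called lower and *Tnfrsf1a*, the main TNF receptor, the 1 called higher (0.41, adjusted p = 2.0e-05 from limma).

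Proliferation genes gave 6 lower and 1 higher of 19, where 10.6% of all probe sets were lower and 5.95% higher, with a median of -0.19. *Cenpe*, *Mki67* and *Kif11*, all genes of dividing cells, differed by -0.46, -0.43 and -0.42, while *Cdk1* differed by 0.40 in the other direction. The list of dissection stress genes of 15 gave 1 higher, *Klf4* (0.44), and 2 lower, *Egr1* (-0.40) and *Dusp1* (-0.31), again close to 16.5%. Spread among pools was wide for *Egr1*, which ran from 8.004 to 9.51 in AZN and from 8.77 to 10.1 in ABH, and its call was lost without any 1 of 6 pools (ABH_11A, AZN_MolairesWT1, AZN_MolairesMutant1, AZN_MolairesMutant3, ABH_15A or ABH_26A, adjusted p = 0.10 to 0.12 from limma). That of *Dusp1* was lost without AZN_MolairesWT2 (-0.24). Both were lost in WT pools alone (-0.21 for *Egr1*, -0.35 for *Dusp1*) and with the epithelium and muscle means as covariates (-0.31 for *Egr1*, -0.22 for *Dusp1*).

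**Figure D4:**
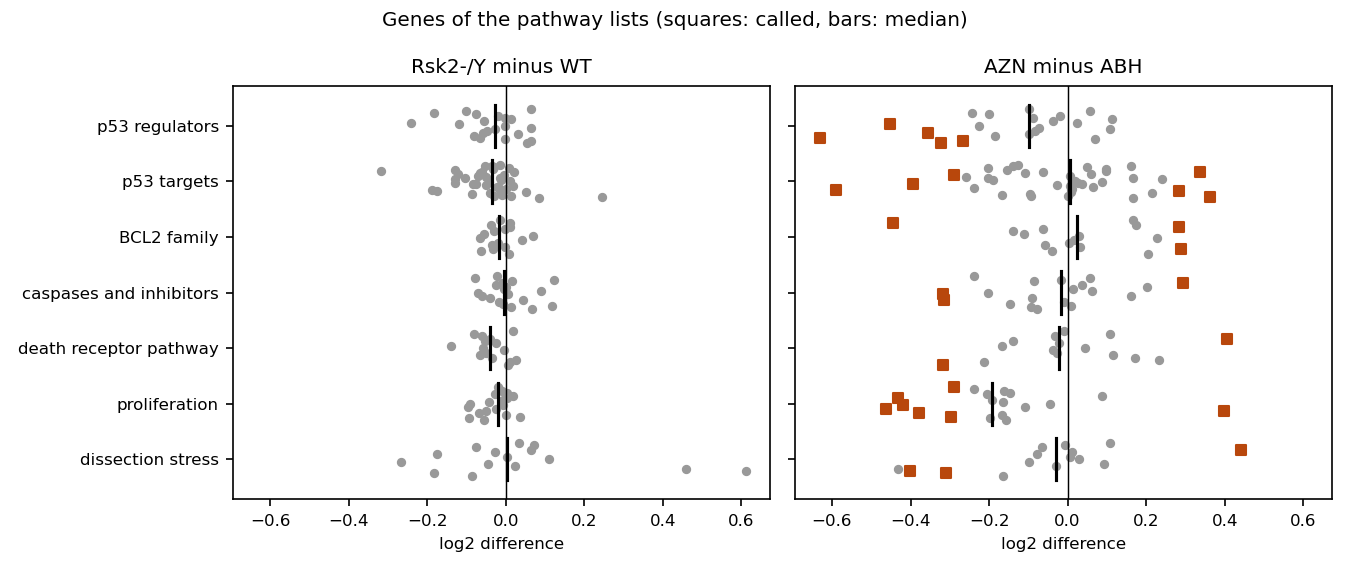
Log2 differences of the genes of 7 pathway lists for *Rsk2-/Y* minus WT (left) and AZN minus ABH (right), with points for genes, orange squares for called genes and black bars for list medians. No gene is called on the left, and on the right 5 p53 regulators and 6 proliferation genes are called lower.

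Markers of other tissues differed between the series too. Of 22 skeletal muscle markers, all were above 0 for AZN minus ABH and 9 were called, among them *Tnnc1* (1.07) and *Myog* (0.94). The mean of the muscle list per pool was 7.80 to 9.56 in AZN and 7.24 to 9.18 in ABH, and the lowest marker, *Myf6*, averaged 5.73, near the minimum signal. Of 19 dental epithelium markers, 6 were above 0 with 1 called higher and 4 lower, where 5.95% of all probe sets were called higher and 10.6% lower. All 7 erythroid markers were above 0 and 3 were called, and of 12 macrophage markers 5 were above 0, with a median of -0.044, and 4 were called higher. Of 10 genes of Schwann cells and neurons 8 were above 0 and 3 called higher, and of 5 osteoblast genes all were above 0 and 2 called. Among 10 endothelium genes 2 were called higher and 1 lower, among 14 of the dental mesenchyme 1 higher and 3 lower, and among 8 of cartilage 1 lower. With the epithelium and muscle means as covariates, *Bcl2* differed by -0.47, *Trp53inp1* by -0.41 and *Mdm2* by -0.31, and all 3 stayed called, while *Phlda3* at 0.32 was called in addition. The part of any of these tissues in the differences was not tested.

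The length of the gene varied with the difference between the series over all probe sets. The span of a gene in RefSeq and its difference of AZN minus ABH gave a Spearman rho of -0.23 over 18766 probe sets, as a description over genes, which share the arrays and are not replicates. For *Rsk2-/Y* minus WT the rho with span was 0.14. *Bcl2* lay at the 92.6 percentile of span, *Cflar* at 71.4, *Mdm2* at 51.4 and *Trp53inp1* at 45.9. *Phlda3* and *Bbc3*, which were higher in AZN, lay at 10.5 and 30.5, and *Ccng1* at 22.7. The part of gene span in the differences of these genes was not tested.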

How the data were processed

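The 16 pools of E14.5 mandibular molars were each hybridised to 1-colour Affymetrix Mouse Gene arrays. The authors deposited log2 signals per probe set, made by RMA in Affymetrix Expression Console 1.3.1.187 per the submitters' processing notes. RMA corrects the background, equalises the arrays and summarises the probes. These values were used as deposited. They lay between 2.57 and 13.97, and the number of arrays limits the precision. Columns of other samples numbered 0.

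The platform's annotation gives 1 symbol for 21789, several for 1621 and none for 12146 of the 35556 probe sets. Probe sets with 1 symbol and a signal above 5 in at least 1 pool were tested. Where a gene had more than 1 such probe set, that with the highest mean was taken as the main one. Symbols of the lists were matched through RefSeq synonyms, and RefSeq gave chromosomes, spans and promoter windows on GRCm38.p6.

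Groups came from the genotype in the labels. Linear models from limma 3.58.1 under R 4.3.3, with eBayes moderation and two-sided p-values adjusted by Benjamini-Hochberg over all probe sets tested, compared genotypes without a covariate and series with genotype as a covariate, and fitted their interaction. An exact permutation test was used for single values and for correlations. Scripts were tested on simulated data. Other steps ran under Python 3.11.15 with pandas 2.3.3, NumPy 2.4.6 and matplotlib 3.10.9. The members, lists and tests were chosen with earlier results of these data known. Named list genes were those called, up to 4 per list with the largest change, or the 2 with the largest change where none was called. *Hspa1a* was named in addition, as the lowest of its list for genotype, and *Dffa* because the study lists it. Relations of *Cdkn1a* with the other members had been planned and could not be computed, and all pairs of the 7 genes took their place. The test for 2 groups that the methods name was run as an alternative and called 0 genes for genotype. Further alternatives were other filters, weights, blocks and covariates, each series or genotype alone, other thresholds and each pool left out in turn.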

Additional observations from a re-analysis of the deposited data

Results flagged for a closer look

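Single pools stood apart in 7 of 72 groups checked, each by a gap to the next pool that took up most of the range of its group. Chance gives about 1 in 20 for a single group. The groups share pools, and the same value can be flagged in more than 1 of them, so the 7 cannot be set against this rate. *Trp53inp1* was at 9.8863 in the WT pool ABH_25A, the highest of the 8 ABH pools and of the 4 WT pools among them, with the next ABH pool at 9.4393. It was at 8.8238 in AZN_MolairesWT2, the lowest of the 4 WT pools of AZN, with the next at 9.1174. *Ccng1* was at 10.9964 in AZN_MolairesMutant3, the highest of the 8 *Rsk2-/Y* pools and of the 8 AZN pools. Of the 16 pools, this pool also had the highest mean of the muscle, osteoblast, cartilage, and Schwann cell and neuron markers. It had the lowest mean of the epithelium and dental mesenchyme markers, of the proliferation genes and of the p53 regulators. *Ccng1* was at 10.7958 in ABH_16A, the highest of the 4 *Rsk2-/Y* pools of ABH, whose other pools lay within a narrow range. *Bcl2* was at 11.3912 in ABH_14A, the lowest of the 8 ABH pools, with the next at 11.5908. The same pool had the lowest mean of the erythroid, macrophage and endothelium markers and of the death receptor genes.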

How the results depend on the processing

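None of the 7 genes was called for genotype or for the interaction under any alternative run. For AZN minus ABH, 3 to 4 of the genes were called with each pool left out in turn, 5 in *Rsk2-/Y* pools alone and 6 without the fold change limit at either false discovery rate. *Bcl2*, *Trp53inp1* and *Mdm2* stayed called throughout. For *Mdm2* this was narrow, as its smallest difference among the alternatives was -0.2633, against a log2 limit of 0.263. Over all probe sets, genotype gave 1 call with the series as a block, 4 in ABH alone and 0 to 10 with each pool left out, the 10 without AZN_MolairesWT2. For the series, 2835 to 3374 probe sets were called with each pool left out, 5263 with unnamed probe sets included, and 6937 and 8432 without the fold change limit at false discovery rates under 0.05 and 0.1.

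Several differences that were not called changed sign. For genotype, *Ccng1* was at -0.0025 in ABH alone, *Bbc3* at 0.0046 in AZN alone, and the *Cflar* probe sets other than the main one at -0.061 and -0.067. When epithelium and muscle means were added as covariates to the series block, *Phlda3* was at 0.0082, *Ccng1* at -0.0083, *Trp63* at 0.084, *Sfn* at 0.023 and *Bid* at 0.032. With each pool left out, *Ccng1* ran from -0.0010 to 0.045 for genotype and *Trp53inp1* from -0.10 to 0.11 for the interaction. The interaction of *Trp53inp1* was -0.087 with array weights, and without ABH_14A and AZN_MolairesMutant3 it was -0.040, that of *Ccng1* -0.0036. That of *Cflar* was 0.11 with 10346562. Without 4 pools that stood apart, a setting chosen after seeing the data, *Ccng1* was at -0.0015 for AZN minus ABH. The cause was not tested. Of the 21 pairs in ABH, 1 passed the adjustment by Pearson's r and 0 by Spearman's rho.

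AZN pools of both genotypes share the numbers 1 and 3, and the deviations of same-numbered pools from their group means correlated at -0.034 and -0.013, whereas those of AZN_MolairesMutant and AZN_MolairesWT, which carry no number, correlated at 0.68. The numbers were not taken as pairs in the main fits. An alternative with the numbers 1 and 3 as blocks, and the remaining pools blocked by series, called 0 genes for genotype. It did not pair AZN_MolairesMutant with AZN_MolairesWT, so their likeness was not modelled in any fit. The alternatives planned for *Cdkn1a* were not run.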
